A study of Arabidopsis thaliana with 6 samples.

Results

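The comparison set unopened flower buds of Arabidopsis thaliana taken on day 5 of drought against buds taken on day 4, over the 22746 probe sets of a single-colour Affymetrix array that were not controls. It used 4 of the series' 6 arrays, all those labelled day 4 or day 5, with 2 replicates a day. The 2 arrays of day 3 entered the same model and added only to the estimate of the spread. All plants on both days carried anac019-1 (SALK_096295), in which a T-DNA interrupts ANAC019, a gene for a NAC transcription factor, in Col-0, and all were under drought. Plants had grown for 24 days before water was withheld. Soil moisture reached about 35% of capacity near 80 hours, which the labels call day 3, and was then held by daily watering. Plants were 29 days past germination on day 4 and 30 days on day 5. No wild type or well-watered plants were analysed here, so a day of drought and a day of age cannot be told apart. The sample titles call the material inflorescence, while their descriptions, tissue entry and RNA protocol call it unopened buds. ANAC019 has no named probe set here and was not analysed. The labels do not say whether replicates came from separate pots, so the p-values reflect only how these samples spread, and that spread may be technical.

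Plants that lose water accumulate abscisic acid and switch on protective genes, among them late embryogenesis abundant (LEA) proteins, which are hydrophilic proteins first known from drying seeds. Cells short of water or carbon slow division and wall growth and recycle their contents by autophagy, in which membranes marked by ATG8 proteins carry cargo to the vacuole. In buds the same days also bring development, since pollen matures while the tapetum, the layer that feeds it, is spent.

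Relative to the rest of the array, buds on day 5 held far more RNA of several desiccation-linked genes. They also held more RNA of ATG8 and gibberellin receptor genes. Calls among genes for cell division, microtubule organisation, organelle RNA editing and photosynthesis were mostly or all lower. Values are log2 RMA values, so a difference of 1 is 2-fold, and a gene passed when its limma p-value, adjusted by the Benjamini-Hochberg method over all 22746 probe sets, was under 0.05. By that rule 5020 probe sets passed, 22.1% of all, of which 2376 (10.4%) were higher and 2644 (11.6%) lower on day 5. The lower calls were more numerous but smaller. A change of at least 2-fold was seen in 1045 of them (4.59%), 660 (2.9%) higher and 385 (1.69%) lower. At least 4-fold, 109 (0.479%) were higher and 13 (0.0572%) lower. At least 16-fold, 9 (0.0396%) were higher and 1 (0.0044%) lower.

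The 4 arrays lay apart by day, both day 5 values above or both below the day 4 values, in 63.9% of probe sets. This background was 26.9% for higher and 37.0% for lower, so separation of 2 arrays from 2 says little of a single gene. Wide separation leaned upward. The nearest arrays of the days lay at least 1 log2 unit apart in 369 probe sets (1.62%) that were higher and 176 (0.774%) that were lower, and at least 2 units apart in 88 (0.387%) and 6 (0.0264%). Between replicates, values differed 2-fold or more in 49 probe sets on day 4 and in 185 on day 5. Pearson correlation across probe sets was 0.9963 between the day 4 arrays, 0.9939 between the day 5 arrays, and 0.974 to 0.9826 across the days.

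The direction of a call depends on what the arrays are scaled to. RMA gives the arrays nearly one distribution, and the median change of all probe sets was -0.04. The poly-A spike-in controls, bacterial RNAs added during labelling, read 6.46 and 6.64 on the day 4 arrays and 7.03 and 6.87 on the day 5 arrays, as means over 24 probe sets. Centred on them, the median change was -0.44, and 917 probe sets were higher and 11012 lower. Higher calls then made up 7.69% of calls, against 47.3% on the values as deposited. Among the rises named further on, those of MCCA, IVD, GID1A, HON4, MGH3, EXLA2, TRM26 and BZIP60 did not pass on that scale. Every rise and fall given here is thus a change relative to the rest of the array. In bulk buds, fewer cells of a type and less RNA per cell cannot be told apart.

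Calls in each direction fell unevenly over starting levels. Among probe sets under 4 on day 4, near the lower end of the scale, 2.04% were higher and 0.231% lower on day 5. From 5 to 6 the share called higher was 17.8% and the share called lower 11.8%. Above a level of 8 the lower calls led, and from 11 upward 23.0% of 777 probe sets were lower and 7.08% higher. RMA compresses changes of dim probe sets, so the small shares at the bottom are not comparable with the rest. Cyclic loess, which removes a level-dependent trend, turned the balance to 2859 higher and 2180 lower.

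**Figure D1:**
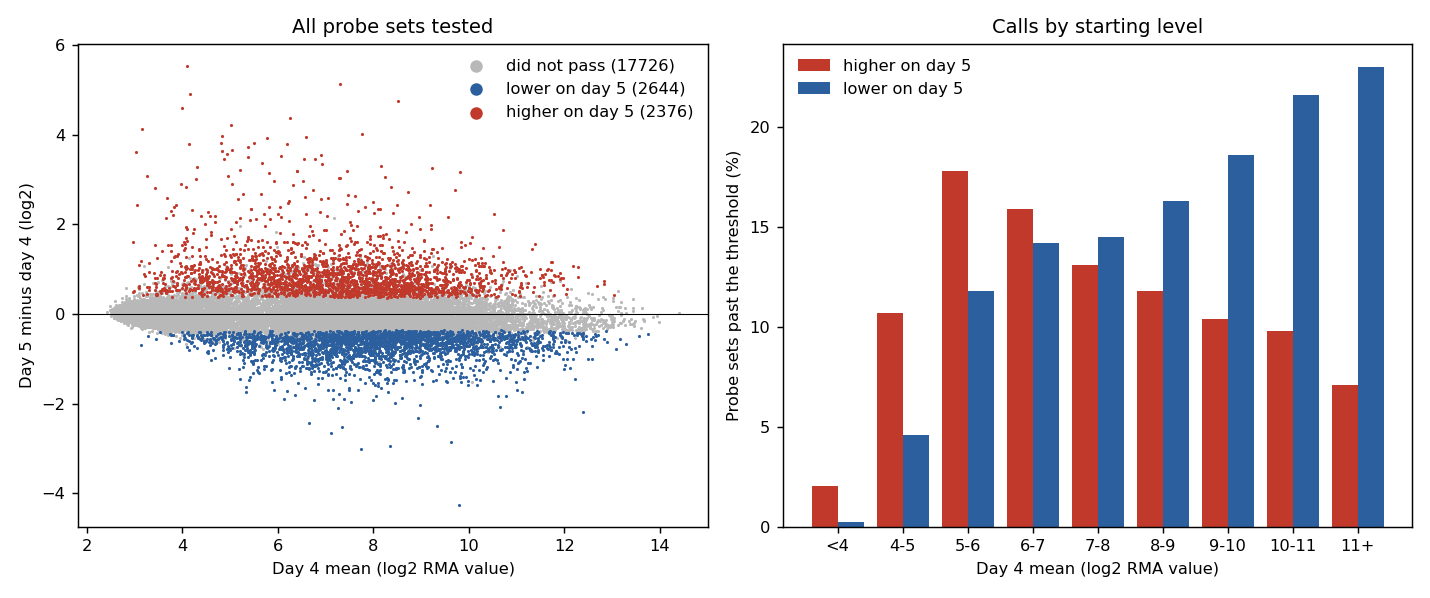
Left, the change from day 4 to day 5 (log2) of each probe set against its day 4 mean (log2 RMA value), coloured by whether it passed an adjusted p of 0.05. Right, the share of probe sets past that threshold in each band of day 4 level, where the lower calls go from 0.231% under 4 to 23.0% from 11 upward.

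The largest rises belonged mostly to genes that the gene table lists by locus alone. Of the 20 largest with 1 named gene, 17 were such loci, and their changes ran from 9.05-fold to 46.2-fold. AT3G17520 read 4.12 and 4.08 on day 4 and 9.70 and 9.56 on day 5, after 3.60 and 3.79 on day 3. It was flat near the bottom of the scale until the last day and rose 46.2-fold (log2 change 5.53 ± 0.12 SE, n = 2 arrays a day, adjusted p = 2.92e-06). Arrays for AT1G22890 read 4.06 and 3.93 on day 4 and 8.64 and 8.52 on day 5, a 24.1-fold rise (adjusted p = 4.02e-06) from a day 4 level below the 4.64 and 4.51 of day 3.

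A different course was seen for HIS1-3, a linker histone whose gene answers to water loss and abscisic acid. It read 4.83 and 4.98 on day 3, 7.92 and 6.70 on day 4, and 12.36 and 12.49 on day 5. Its day 4 replicates were more than 1 unit apart, yet the higher of them stayed 4.44 below the lower day 5 array. The rise was 34.7-fold (log2 change 5.12 ± 0.33 SE, adjusted p = 0.000154), and by day 5 the gene was among the brighter ones on the array. AT2G21820 and AT5G66780 climbed in the same stepped way, with day 4 arrays of 6.70 and 5.82, and of 6.89 and 5.47. On day 5 they read 10.57 and 10.70, and 9.98 and 9.94, rises of 20.7-fold and 13.7-fold (adjusted p = 8.42e-05 and 0.000954).

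Other loci were lower on day 4 than on day 3 before they rose. AT3G15450 read 8.76 and 8.91 on day 3, 7.97 and 7.58 on day 4, and 11.74 and 11.81 on day 5, a 16.0-fold rise (adjusted p = 1.76e-05). AT4G27450 read 8.02 and 7.96, then 6.89 on both day 4 arrays, then 10.42 and 10.45, an 11.6-fold rise (adjusted p = 8.04e-06). All 20 of these rises kept their call with each array left out in turn. On day 5 their replicates were close, with a median SD of 0.09 against 0.21 on day 4.

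Among the named genes with the largest rises were regulators and stress proteins of several kinds. DEWAX (AT5G61590), an AP2/ERF factor that represses wax synthesis in the dark, read 5.52 and 5.25 on day 4 and 8.79 and 8.98 on day 5, up 11.3-fold (adjusted p = 1.76e-05). SIS, a salt-induced serine-rich protein, went from 8.36 and 7.97 to 11.15 and 11.79, up 9.89-fold (adjusted p = 0.000181). PAP85, a vicilin-like seed storage protein, lay at 3.17 and 3.34 and reached 6.10 and 6.57, up 8.46-fold (adjusted p = 6.72e-05). For all of these the day 5 arrays lay at least 2.76 above the day 4 arrays.

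Growth and hormone genes stood beside them. WES1, a GH3 enzyme that conjugates auxin to amino acids, read 7.59 and 7.33 on day 4 and 10.09 and 10.15 on day 5, up 6.33-fold (adjusted p = 0.000101). ARL, a regulator of organ size through cell expansion, read 6.08 and 6.34, then 8.68 and 8.69, up 5.57-fold (adjusted p = 0.000999). The auxin-inducible homeodomain factor HAT2 rose 2.79-fold (adjusted p = 0.00033), and SKP2A, an F-box protein of the cell cycle, 3.11-fold (adjusted p = 0.00072). STZ, a zinc finger repressor of stress responses, rose 2.79-fold from 4.16 and 3.94 to 5.59 and 5.47 (adjusted p = 0.00067).

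The largest falls were smaller than the largest rises and less even between the day 5 arrays. Among probe sets with 1 named gene the leading one was BCAT4, an aminotransferase that opens methionine chain elongation for aliphatic glucosinolates, the mustard-oil precursors. It read 7.82 and 7.65 on day 4 and 5.03 and 4.40 on day 5, 8.10-fold lower (log2 change -3.02 ± 0.29 SE, adjusted p = 0.00079). AT4G11190 read 7.04 and 7.18, then 4.52 and 4.41, which is 6.25-fold lower (adjusted p = 2.41e-05). AT4G16270 read 9.37 and 9.90, then 7.48 and 6.07, 7.25-fold lower (adjusted p = 0.0031). Only genes whose day 4 and day 5 arrays did not overlap were taken for these largest rises and falls.

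The day 5 replicates were not equally low. Replicate 2 lay below replicate 1 in 19 of the 20 largest falls, and in 342 of the 385 probe sets that fell at least 2-fold. The median day 5 SD over the 20 falls was 0.55, against 0.10 on day 4. Among the 660 probe sets that rose at least 2-fold, replicate 2 was the higher array in 446. AT4G29980, at 7.72 and 5.93 on day 5, AT5G24820, at 5.98 and 4.36, and AT3G07450, at 9.41 and 7.78, lost their calls without day 4 replicate 1 (log2 changes -2.46, -2.02 and -2.0) and without day 4 replicate 2 (-2.55, -2.15 and -2.14). AT3G52130 lost its call without either day 4 array (-1.80 and -1.71) and without day 5 replicate 2 (-1.22). GSTU20 and AT3G14395 lost theirs without day 4 replicate 2 (-1.70 and -1.64).

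**Figure D2:**
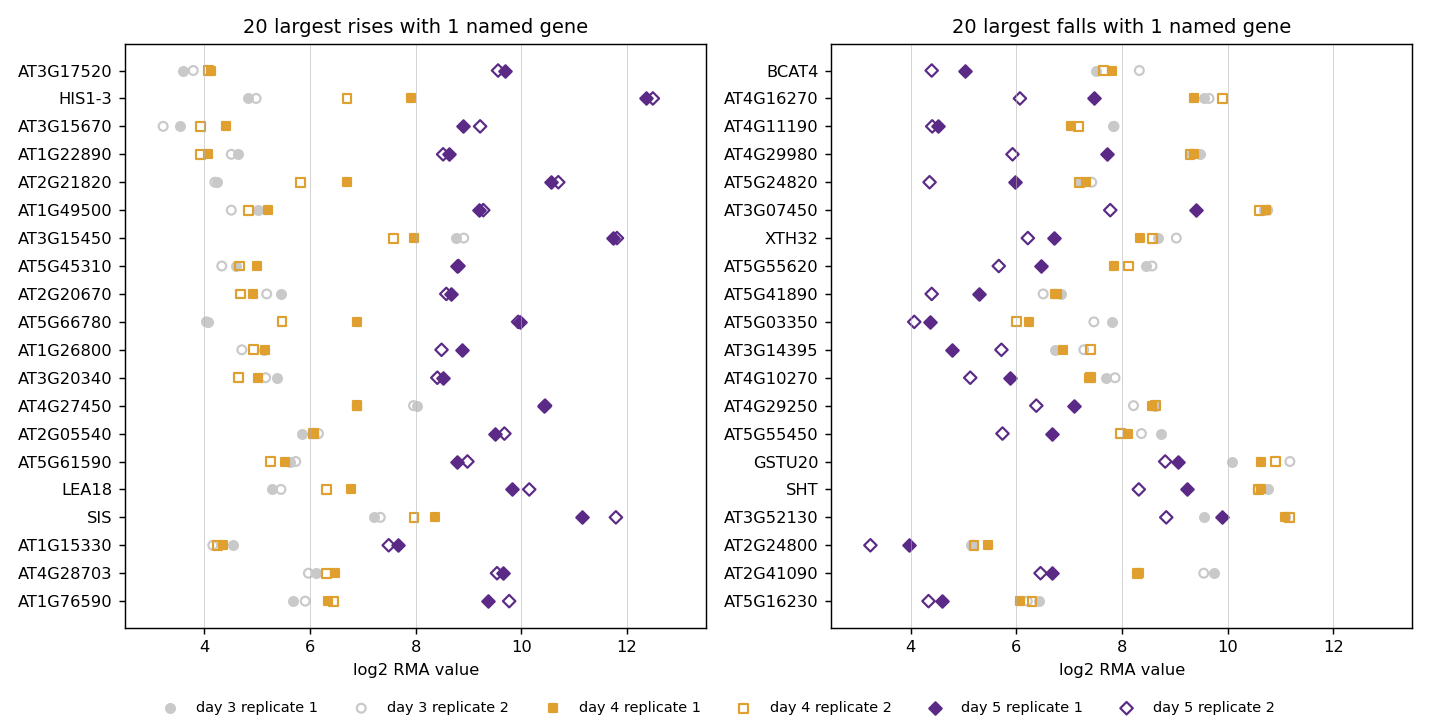
Log2 RMA values on each of the 6 arrays for the 20 largest rises (left) and the 20 largest falls (right) with 1 named gene past the threshold and no overlap of day 4 and day 5 arrays. Marker shape and colour give the day, filled markers replicate 1 and open markers replicate 2. In the falls the open day 5 marker lies left of the filled one in 19 of 20 genes.

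Known functions were read through 69 gene lists, of which 55 held at least 3 genes with a named probe set, 810 genes in all. Each gene was represented by its brightest probe set. Among all 13356 named genes 20.1% passed, 9.62% higher and 10.5% lower, and the median change was -0.04. These shares are the background for the counts that follow. Leaving out an array of days 4 or 5 changed many of these counts, mostly downward. For many lists the counts or median changes are therefore also given with 1 array left out. Such counts are always in the order day 4 replicate 1, day 4 replicate 2, day 5 replicate 1, day 5 replicate 2.

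LEA proteins and dehydrins, which protect membranes and proteins as water is lost, had 7 of 12 measured genes higher and 1 lower, with a median change of 0.74. Centred on the spike-in controls, 5 were higher and 4 lower, with a median change of 0.34. LEA18 read 6.77 and 6.31 on day 4 and 9.83 and 10.15 on day 5, up 10.9-fold (log2 change 3.45 ± 0.18 SE, adjusted p = 5.84e-05). LEA4-5 read 8.46 and 8.02, then 11.12 and 11.46, up 8.28-fold (adjusted p = 0.000511). The dehydrin LTI30 read 7.57 and 7.0, then 10.21 and 10.42, up 8.18-fold (adjusted p = 0.00672). All 3 were already above their day 3 arrays on day 4.

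COR15B went the other way. This chloroplast cold-response protein read 10.59 and 10.70 on day 4 and 9.42 and 9.37 on day 5, 2.38-fold lower (adjusted p = 0.000659), while its close relative COR15A read 12.87 and 12.86, then 12.69 and 12.75, and did not pass (adjusted p = 0.492). The other genes short of the threshold included the dehydrin HIRD11 (AT1G54410), at 12.51 and 12.55 and then 12.22 and 12.28. With an array omitted, 3, 2, 6 and 4 genes of this list were higher. LTI30 lost its call without day 4 replicate 2 (log2 change 2.75), as did AtLEA4-1 without either day 4 array (0.98 and 0.94).

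Autophagy genes, with 11 of 46 measured, had the largest share of calls in 1 direction among the lists with at least 8 measured genes. Both day 5 arrays lay above both day 4 arrays in all 11, against a background of 25.6% of named genes, 9 of 11 passed as higher, and the median change was 0.56. All 9 encode ATG8, the small ubiquitin-like protein that is attached to the lipid of the autophagosome. ATG8E changed most, from 6.47 and 6.37 to 7.86 and 8.15, up 3.01-fold (log2 change 1.59 ± 0.14 SE, adjusted p = 0.00065). ATG8F, brighter at 10.39 and 10.44, reached 11.41 and 11.53, up 2.07-fold (adjusted p = 0.0013). ATG8H read 7.54 and 7.32, then 8.32 and 8.95, up 2.3-fold (adjusted p = 0.00576).

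The rest of the ATG8 genes rose by 0.50 to 0.81 on the log2 scale. Only 2 measured members lay outside the ATG8 family, and they did not pass. ATG101 (AT5G66930), of the kinase complex that starts autophagy, read 7.62 and 7.44, then 8.05 and 8.12 (adjusted p = 0.0555), and ATG3, the enzyme that passes ATG8 to its lipid, read 8.55 and 8.54, then 8.68 and 8.85 (adjusted p = 0.28). Without an array 4, 2, 5 and 4 of the 11 passed, and centred on the spike-in controls 3 did, with a median change of 0.16. ATG8H lost its call without day 4 replicate 2 (log2 change 1.1). ATG8 genes resemble each other in sequence, and whether their probes share signal was not tested.

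Genes that respond to low carbon or darkness also leaned upward, with 3 of 5 higher (1, 1, 3 and 2 with an array left out) and a median of 0.60. AKINBETA1, a subunit of the energy-sensing kinase SnRK1, read 7.82 and 7.94 on day 4 and 8.90 and 8.85 on day 5, up 1.99-fold (adjusted p = 0.00144). MCCA and IVD, enzymes of leucine breakdown, rose 1.67-fold and 1.48-fold (adjusted p = 0.00808 and 0.0124). MCCA and IVD lost their calls without day 4 replicate 1 (log2 changes 0.74 and 0.64), day 4 replicate 2 (0.73 and 0.50) and day 5 replicate 2 (0.62 and 0.55). Of 23 vacuolar and other proteases, 3 were higher and 2 lower. When an array was left out the higher count was 2, 1, 1 and 1 and the lower count 0, 0, 4 and 0. GAMMA-VPE, a vacuolar processing protease linked to cell death, read 9.93 and 10.14, then 11.42 and 11.81, up 3.00-fold (adjusted p = 0.000941). Senescence and chlorophyll breakdown genes had 0 calls by limma among 5, with 2 higher at an unadjusted p under 0.05. The nearest was WRKY6, at 4.76 and 4.68 and then 5.00 and 5.45 (adjusted p = 0.0723).

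In protein tagging by ubiquitin 7 of 35 genes were higher and 6 lower. The counts were 5, 3, 8 and 5 higher and 2, 1, 4 and 1 lower when an array was left out. XERICO, a RING protein that raises abscisic acid levels, read 9.56 and 9.49 on day 4 and 10.65 on both day 5 arrays, up 2.19-fold (adjusted p = 0.000954). PUB19, a ligase that damps abscisic acid responses, read 6.96 and 6.65, then 8.11 and 7.97, up 2.36-fold (adjusted p = 0.00317), and PUB15 rose 2.01-fold (adjusted p = 0.0014). Among the falls, UBC20, a conjugating enzyme of dividing cells, read 9.05 and 9.29, then 8.18 and 8.21, 1.96-fold lower (adjusted p = 0.00982). UBC20 lost its call without day 4 replicate 2 (log2 change -0.85) and without day 5 replicate 2 (-0.99).

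In the gibberellin list, with 6 of 44 genes measured, the direction of the calls differed between receptors and F-box proteins. All 3 GID1 receptors rose, and both SLY F-box proteins, which pass the signal on by removing DELLA repressors, fell. GID1B read 5.49 and 5.27 on day 4 and 6.89 and 6.75 on day 5, up 2.71-fold (log2 change 1.44 ± 0.13 SE, adjusted p = 0.00059). GID1C read 5.05 and 4.96, then 6.42 and 6.12, up 2.41-fold (adjusted p = 0.00118). GID1A read 7.58 and 7.89, then 8.47 and 8.35, up 1.60-fold (adjusted p = 0.0171).

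On the other side, SLY1 read 8.72 and 8.66, then 8.33 and 8.25, 1.32-fold lower (adjusted p = 0.0416). SLY2 read 5.88 and 5.89, then 5.38 and 5.09, 1.57-fold lower (adjusted p = 0.0117). GID1B and GID1C kept their calls with each array left out. GID1A lost its call without day 4 replicate 1 (log2 change 0.53), day 5 replicate 1 (0.61) and day 5 replicate 2 (0.74). SLY1 lost its call without any 1 of the 4 arrays, with changes of -0.44 to -0.35, and also after cyclic loess (-0.33), while SLY2 lost its call without day 4 replicate 1 (-0.65), day 4 replicate 2 (-0.65) and day 5 replicate 2 (-0.51).

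Auxin genes had 4 of 19 higher, WES1 and HAT2 among them, and 1 lower, with a median change of -0.03. When an array was left out 2, 2, 3 and 2 were higher. The lower gene was IAA33, a non-canonical member of the Aux/IAA repressors, at 5.53 and 5.41 on day 4 and 4.17 and 4.62 on day 5 (2.1-fold, adjusted p = 0.00455). In the cytokinin list ARR15, an early response regulator, was the 1 call among 6. It read 7.12 and 6.98, then 6.27 and 5.79, 2.03-fold lower (adjusted p = 0.00664), after 7.71 and 7.94 on day 3, and its call was lost without day 4 replicate 1 (log2 change -0.95). GI, a clock gene whose RNA cycles over the day, read 5.96 and 5.73 on day 3, 8.37 and 8.12 on day 4, and 9.32 and 9.31 on day 5, up 2.1-fold at the last step (adjusted p = 0.00218). COR27, a cold-induced gene of the evening, rose 2.77-fold (adjusted p = 0.000954). The hour of sampling is not given in the labels, and its part in these values was not tested.

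In the list of DNA replication and cell cycle genes, with 12 of 141 measured, all calls of the full fit were lower. The F-box gene SKP2A, named above among the rises, is outside this list. In the list of 12, 5 fell and 0 rose by limma, 7 and 0 at an unadjusted p under 0.05, and the median change was -0.39. PRL, the MCM7 subunit of the replicative helicase, read 9.47 and 9.66 on day 4 and 8.57 and 8.45 on day 5, 2.07-fold lower (log2 change -1.05 ± 0.12 SE, adjusted p = 0.00152). POLA3, a subunit of the polymerase that primes replication, read 8.17 and 8.38, then 7.59 and 7.26, 1.80-fold lower (adjusted p = 0.00761). BUB3.1, of the spindle checkpoint, read 9.18 and 9.08, then 8.49 and 8.23, 1.7-fold lower (adjusted p = 0.00612).

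Beside the list, its checkpoint partner BUBR1 read 6.73 and 6.68, then 5.59 and 5.43, 2.29-fold lower (adjusted p = 0.00161). 3xHMG-box2, an HMG protein found on mitotic chromosomes, read 9.99 and 10.05, then 8.91 and 8.71, 2.32-fold lower (adjusted p = 0.000886). AUR1, a mitotic kinase, fell by 0.47 on the log2 scale (adjusted p = 0.0211). With 1 array left out the list had fewer lower calls, and its median change ran from -0.44 to -0.31. Without day 5 replicate 1 not all calls of the list were lower. POLA3 lost its call without day 4 replicate 2 (log2 change -0.74), BUB3.1 without day 4 replicate 1 (-0.72), and AUR1 without any 1 of the 4 (-0.51 to -0.42).

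Histones split between variants. HTB1 and HTB2, core H2B histones, read 10.81 and 10.79, and 11.55 and 11.71 on day 4, then 10.11 and 9.78, and 10.94 and 10.83. They were 1.81-fold and 1.68-fold lower (adjusted p = 0.0147 and 0.0171), and HTR12, the centromeric H3, was 1.46-fold lower (adjusted p = 0.0439). The 3 that rose were HIS1-3, the linker-histone-related HON4 (1.36-fold, adjusted p = 0.0408) and MGH3, an H3 variant of the male gamete (1.91-fold, adjusted p = 0.0358). Of these 6 calls only that of HIS1-3 was kept with each array left out. HTB1 and HTB2 lost theirs without day 4 replicate 1 (log2 changes -0.85 and -0.83), day 4 replicate 2 (-0.87 and -0.67) and day 5 replicate 2 (-0.69 for both), and the others without any 1 of the 4 arrays (HTR12 -0.66 to -0.44, HON4 0.33 to 0.56, MGH3 0.81 to 1.05). Whether probes for these similar genes share signal was not tested.

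Microtubule genes were lower more often than higher. Of 34 measured kinesins and microtubule-associated proteins 10 fell and 1 rose, against 10.5% and 9.62% of named genes, and the median change was -0.23. Both day 5 arrays lay below both day 4 arrays in 20 of the 34, where the background is 35.8%. TRM24, of a family that recruits proteins to microtubules, read 6.68 and 6.77 on day 4 and 5.89 and 5.25 on day 5, 2.23-fold lower (adjusted p = 0.00649). KINESIN-12B, a motor of the phragmoplast that builds the new wall between daughter cells, read 6.61 and 6.63, then 5.80 and 5.22, 2.15-fold lower (adjusted p = 0.0077).

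Day 5 replicate 2 was the lower array in both, as it was in 2 further members. TRM28 read 7.34 and 7.41, then 6.69 and 6.31, 1.84-fold lower (adjusted p = 0.00559). TRM22 read 7.97 and 7.96, then 7.40 and 7.15, 1.61-fold lower (adjusted p = 0.00849). The member that rose was TRM26, from 6.46 and 6.52 to 6.92 and 7.28 (1.52-fold, adjusted p = 0.0306). Few of these calls held. The list had 4, 0, 8 and 3 lower genes with 1 array left out. TRM24, KINESIN-12B, TRM28, TRM22 and TRM26 each lost their call without day 4 replicate 2 (log2 changes -1.11, -1.10, -0.85, -0.69 and 0.64). TRM22 and TRM26 also lost theirs without day 4 replicate 1 (-0.69 and 0.58) and day 5 replicate 2 (-0.57 and 0.43).

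Cell wall loosening genes changed in both directions, with the larger values downward. Among 29 expansins and xyloglucan enzymes 7 rose and 6 fell. XTH32, which cuts and rejoins xyloglucan, read 8.35 and 8.58 on day 4 and 6.71 and 6.22 on day 5, 3.99-fold lower (log2 change -2.0 ± 0.20 SE, adjusted p = 0.000901). EXPA15, an expansin, was even between replicates at 10.99 and 11.01, then 9.36 and 9.27, 3.23-fold lower (adjusted p = 0.000943). EXPB3 read 10.17 and 10.32, then 8.84 and 8.72, 2.76-fold lower (adjusted p = 0.00214).

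All the rises in this list were 2.0-fold or less. EXPA24 read 7.02 and 6.54, then 7.85 and 7.71, up 2.0-fold (adjusted p = 0.0223), and EXLA2 read 7.29 and 7.55, then 8.08 and 8.18, up 1.63-fold (adjusted p = 0.00845). With 1 array left out 3, 1, 6 and 1 were higher and 3, 3, 6 and 3 lower. EXPA24 lost its call without day 4 replicate 2 (log2 change 0.76), day 5 replicate 1 (0.93) and day 5 replicate 2 (1.07), and EXLA2 without day 4 replicate 1 (0.58) and day 5 replicate 2 (0.66). XTH32, EXPA15 and EXPB3 kept theirs throughout.

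Glycosidases had more lower than higher calls in the full fit, 10 of 38 against 3, with a median change of -0.09. Of the 38, 16 were under 5 on both days. BGLU44, a beta-mannosidase, read 10.06 and 10.28, then 8.80 and 8.37, 3.00-fold lower (adjusted p = 0.00104). GH9B8, an endoglucanase-family gene, read 8.33 and 8.29, then 6.92 and 6.78, 2.74-fold lower (adjusted p = 0.000343). BGLU45, which acts on lignin precursor glucosides, read 4.05 and 4.09, then 5.82 and 6.18, up 3.81-fold (adjusted p = 0.000486), and BGLU28 rose 2.25-fold (adjusted p = 0.0023). These 4 kept their calls with each array left out. The list as a whole did not keep its excess of lower calls without day 4 replicate 2 or without day 5 replicate 1. Its median change stayed between -0.10 and -0.08 with 1 array left out.

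Lists of genes that serve plastids leaned downward, by modest amounts. In the list of organelle RNA editing and processing proteins 6 of 15 fell and 0 rose by limma. At an unadjusted p under 0.05 the counts were 11 and 0, and the median change was -0.44. Both day 5 arrays lay below both day 4 arrays in 13 of the 15, where the background is 35.8% of named genes. OTP84, an editing factor of the chloroplast, read 6.07 and 5.78 on day 4 and 5.29 and 4.96 on day 5, 1.75-fold lower (adjusted p = 0.00999). CRR21 read 7.16 and 7.49, then 6.72 and 6.56, 1.61-fold lower (adjusted p = 0.015). LPA66, which edits a photosystem II transcript, read 7.48 and 7.22, then 6.84 and 6.71, 1.49-fold lower (adjusted p = 0.0185). PPR596, a mitochondrial member, read 9.49 and 9.43, then 8.94 and 8.60, 1.61-fold lower (adjusted p = 0.0134).

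Each of these 4 calls was lost in some fit. The list had 2, 1, 5 and 1 lower genes with 1 array left out. OTP84 lost its call without day 4 replicate 1 (log2 change -0.66) and day 5 replicate 2 (-0.64), and CRR21 without day 4 replicate 2 (-0.52) and day 5 replicate 2 (-0.61). LPA66 and PPR596 lost theirs without day 4 replicate 1 (-0.44 and -0.66), day 4 replicate 2 (-0.70 and -0.72) and day 5 replicate 2 (-0.51 and -0.52).

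The chlorophyll, carotenoid and plastid biogenesis list, which shares 3 genes with the editing list, had 5 of 12 lower and 1 higher, with a median of -0.43. CHLI2, a subunit of the magnesium chelatase of chlorophyll synthesis, read 8.37 and 8.51, then 7.70 and 7.46, 1.82-fold lower (adjusted p = 0.00544). PORB, a light-dependent enzyme of the same pathway, read 9.96 and 9.97, then 9.32 and 9.16, 1.65-fold lower (adjusted p = 0.00731). Photosystem genes with calls were PSBY (1.64-fold lower, adjusted p = 0.00826), PSAN (1.55-fold, adjusted p = 0.0254) and LHCB4.3 (1.44-fold, adjusted p = 0.0416), 3 of 6 with 0 higher, also at an unadjusted p under 0.05. In the list of carbon fixation and starch 3 of 9 fell, among them SBPASE, from 11.16 and 11.20 to 10.74 and 10.62 (1.41-fold, adjusted p = 0.0197). The photosystem and carbon fixation lists had median day 4 levels of 11.54 and 10.0. Over all probe sets 23.0% were lower from 11 upward and 21.6% from 10 to 11. The median changes of the 2 lists were -0.37 and -0.22, and after cyclic loess -0.22 and -0.05, with 2 and 1 genes lower.

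These photosynthetic genes still read high on day 5. Of the 69 plastid-encoded genes, 2 fell and 0 rose by limma, 10 and 1 at an unadjusted p under 0.05, with a median of -0.17. The count of lower genes was 0, 3, 2 and 2 with an array left out and 35 with spike-in centring. With 1 array left out the counts of lower genes were 2, 1, 5 and 1 for plastid biogenesis, 1, 0, 2 and 0 for photosystems, and 1, 0, 1 and 0 for carbon fixation. CHLI2 lost its call without day 4 replicate 2 (log2 change -0.80), as did PSBY (-0.60), which also lost it without day 5 replicate 2 (-0.70). PORB and SBPASE lost theirs without day 4 replicate 1 (-0.73 and -0.52), day 4 replicate 2 (-0.71 and -0.48) and day 5 replicate 2 (-0.64 and -0.44). PSAN lost its call without any 1 of the 4 arrays (-0.68 to -0.58), LHCB4.3 without 3 of the 4 (-0.56 to -0.33) and also without either day 3 array (-0.53 for both), and the calls of LHCB4.3 and SBPASE were lost after cyclic loess.

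**Figure D3:**
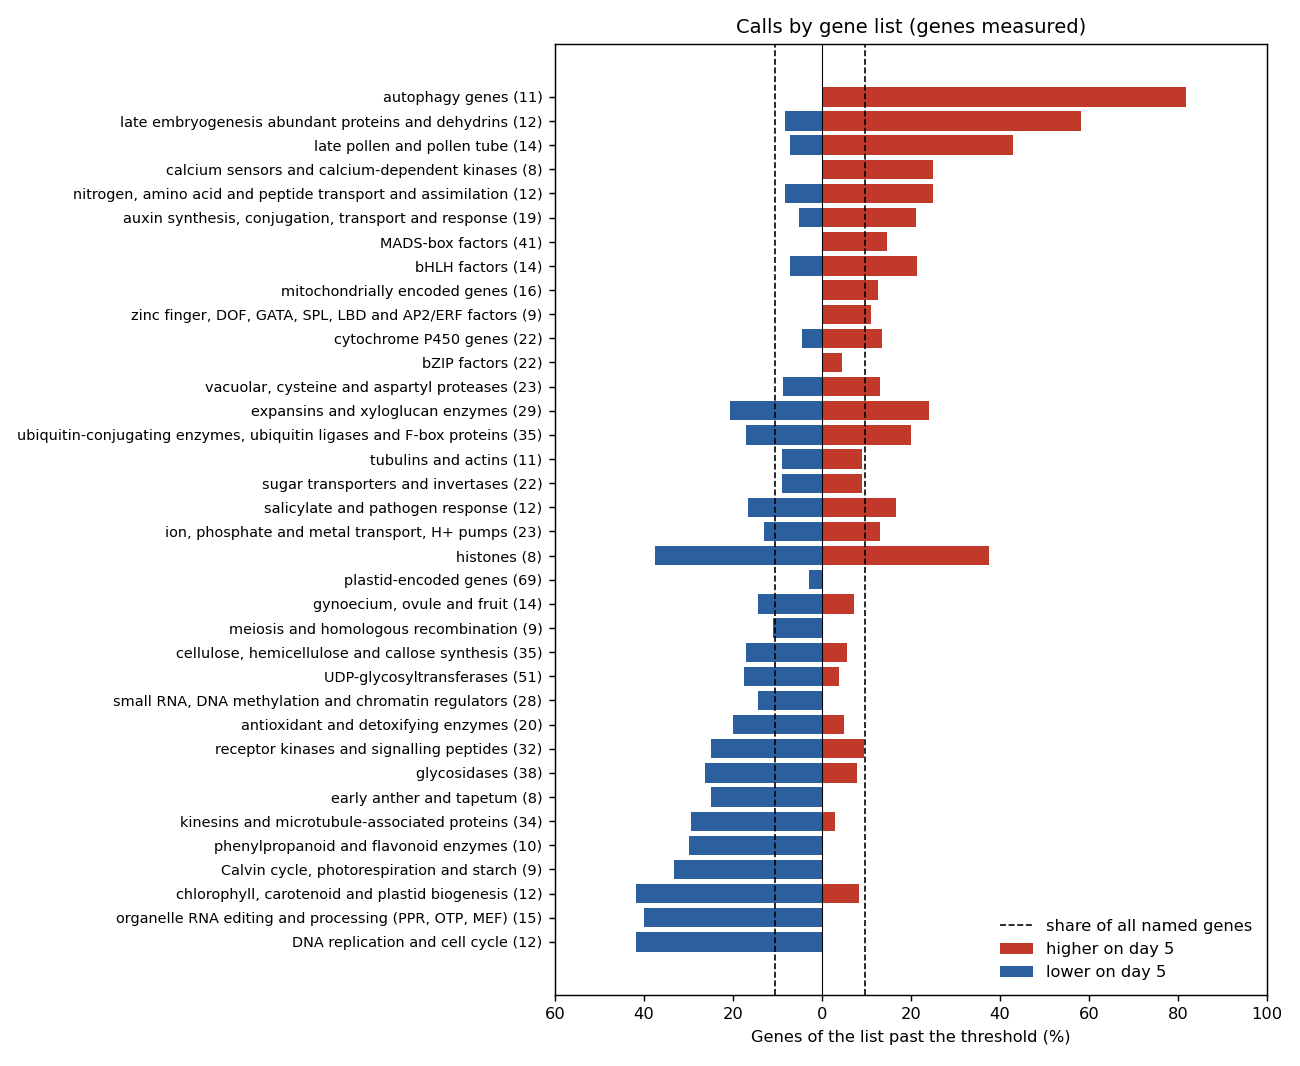
Share of measured genes in each list that passed as higher (right, red) or lower (left, blue) on day 5, for lists with at least 8 measured genes, whose number stands in brackets. Dashed lines mark the share of all named genes, 9.62% higher and 10.5% lower. Autophagy genes lie furthest to the right and the cell cycle, organelle RNA and plastid biogenesis lists furthest to the left.

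Genes that decorate or make small metabolites came next. In the list of 51 UDP-glycosyltransferases, which attach sugars to hormones and small metabolites, 9 fell and 2 rose. UGT78D1, a flavonol rhamnosyltransferase, read 10.16 and 10.42 on day 4 and 9.17 and 9.14 on day 5, 2.2-fold lower (adjusted p = 0.00161). UGT84A1, which acts on hydroxycinnamic acids, read 7.27 and 7.44, then 6.39 and 6.23, 2.06-fold lower (adjusted p = 0.00188). UGT74B1, of glucosinolate synthesis like BCAT4, read 8.01 and 8.06, then 7.35 and 7.22, 1.68-fold lower (adjusted p = 0.00624), and lost its call without day 4 replicate 2 (log2 change -0.72). UGT85A5 went from 7.15 and 6.83 to 8.48 and 8.62, up 2.95-fold (adjusted p = 0.00074). With 1 array left out 5, 3, 7 and 5 of this list were lower.

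Receptor kinases and signalling peptides had 8 of 32 lower and 3 higher. CLE27, a small secreted peptide, read 6.74 and 6.59, then 5.54 and 5.62, 2.13-fold lower (adjusted p = 0.00321). RALFL34, an alkalinising peptide, was bright at 12.21 and 12.28 and fell to 11.57 and 11.24 (1.79-fold, adjusted p = 0.00703). The defensin-like genes went both ways, since PDF2.1 rose 2.16-fold (adjusted p = 0.00108) and PDF2.5 fell 2.33-fold (adjusted p = 0.00229). The list had 5, 3, 6 and 4 lower with 1 array left out, and RALFL34 lost its call without day 4 replicate 2 (log2 change -0.80).

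Transporters were mixed. SWEET17, a vacuolar fructose transporter, read 7.55 and 7.41, then 6.69 and 6.32, 1.97-fold lower (adjusted p = 0.00407). NRAMP5, a metal transporter, read 5.68 and 5.49, then 6.56 and 6.72, up 2.08-fold (adjusted p = 0.00185), and CHX15, a cation exchanger, rose 2.02-fold (adjusted p = 0.00478). ZIP9, a zinc transporter family gene, read 5.76 and 5.65, then 4.78 and 4.85, 1.85-fold lower (adjusted p = 0.00403). Ion and metal transport as a list had 3 of 23 in each direction, and sugar transport 2 of 22 in each. For ion and metal transport, leaving out an array gave 3, 2, 3 and 3 higher and 1, 1, 3 and 1 lower. For sugar transport it gave 3, 0, 4 and 1 higher and 1 lower each time, and cyclic loess gave 4 higher and 1 lower.

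Several transcription factor families gave few calls. The bHLH list had 3 of 14 higher and 1 lower, and 7 and 3 at an unadjusted p under 0.05. Only 1 NAC and 1 MYB gene were measured, of 106 and 150 in the gene table, and the NAC gene passed as higher. MADS-box factors had 6 of 41 higher and 0 lower by limma, 8 and 1 at an unadjusted p under 0.05, and 30 of the 41 were under 5 on both days. The higher count was 3, 3, 5 and 3 with an array left out, and spike-in centring gave 3 higher and 13 lower. AGL67, known from maturing seeds, read 3.77 and 3.56 on day 4 and 5.77 and 5.82 on day 5, up 4.39-fold (adjusted p = 0.00016). Among 22 bZIP factors 1 passed, BZIP60, a factor of the unfolded protein response, from 8.94 and 8.95 to 9.61 and 9.60 (1.58-fold, adjusted p = 0.00585). Its call was lost without day 4 replicate 2 (log2 change 0.66). WRKY22 rose 2.00-fold (adjusted p = 0.00303) as the 1 call among 7 WRKY factors, and bHLH121, a regulator of iron balance, rose 1.81-fold (adjusted p = 0.00392). Chromatin and small RNA regulators had 4 of 28 lower and 0 higher by limma, 8 and 0 at an unadjusted p under 0.05, and the lower count was 1, 0, 4 and 1 with an array left out. Among the lower genes was AGO7, an Argonaute of leaf timing, at 7.62 and 7.71, then 6.90 and 6.86 (1.72-fold lower, adjusted p = 0.00455). The call of AGO7 was lost without day 4 replicate 2 (-0.74).

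Among pollen markers most calls were higher on day 5 and among tapetum markers all were lower, though many genes of both lists did not pass. Among late pollen and pollen tube genes 6 of 14 rose and 1 fell, the median change was 0.64, and the mean level over the 14 genes was 6.40 and 6.33 on day 4 and 6.80 and 7.03 on day 5. AGL66 and AGL104, MADS-box factors of the maturing pollen grain, read 6.29 and 6.10, and 6.57 and 6.17 on day 4, then 7.08 and 7.25, and 7.36 and 7.51 on day 5. They rose 1.96-fold and 2.09-fold (adjusted p = 0.00233 and 0.00489). ANX1, a receptor kinase of the pollen tube, read 5.76 and 5.89, then 6.59 and 6.83, up 1.86-fold (adjusted p = 0.00412). MGH3, counted here too, was given with the histones. The gene that fell was SETH1 (log2 change -0.52), whose call was lost without any 1 of the 4 arrays (-0.69 to -0.34). ACT12, a pollen actin, rose 1.88-fold (adjusted p = 0.00482), with its call lost without day 4 replicate 2 (log2 change 0.77).

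Early anther and tapetum genes went the other way in 2 of 8, with 0 higher by limma and 1 at an unadjusted p under 0.05, and with list means of 7.74 and 7.73, then 7.44 and 7.17. SHT, which builds spermidine conjugates for the pollen coat in the tapetum, read 10.63 and 10.59 on day 4 and 9.24 and 8.32 on day 5, 3.55-fold lower (log2 change -1.83 ± 0.26 SE, adjusted p = 0.00338). AMS, a bHLH regulator of the tapetum, read 8.98 and 9.19, then 8.80 and 8.18, and did not pass (adjusted p = 0.0704). With 1 array left out the median change ran from 0.40 to 0.81 for pollen genes and from -0.42 to -0.27 for tapetum genes. Most of these fits gave fewer calls, and without day 4 replicate 1 the tapetum calls went both ways. The part of these marker levels in the other results was not tested.

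Markers of other tissues gave few calls. Floral meristem and organ identity had 0 calls by limma among 5 genes, with 1 higher at an unadjusted p under 0.05. SEU read 7.86 and 8.27, then 8.07 and 8.29, and UFO and CLV3, genes of the very young meristem, stayed between 3.37 and 4.17. Of 6 leaf, stem and root markers 1 fell, SPCH of the stomatal lineage, from 6.06 and 6.02 to 5.68 and 5.37 (adjusted p = 0.029). Its call was lost without 3 of the 4 arrays, with changes of -0.54 to -0.36. EXPA7 and EXPA18, genes of root hairs, lay between 3.49 and 4.42 on all 4 arrays, near the bottom of the scale. List means were 5.30 and 5.32 on day 4 and 5.11 and 4.96 on day 5 for these 6 markers. The change was negative in all 6 (-0.52 to -0.12), with 3 lower at an unadjusted p under 0.05. Both day 5 arrays lay below both day 4 arrays in 5 of the 6, where the background is 35.8% of named genes. Of the 6, 3 were under 5 on both days. The 3 measured reference genes had 0 calls by limma and 0 at an unadjusted p under 0.05, with a median change of -0.03.

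**Figure D4:**
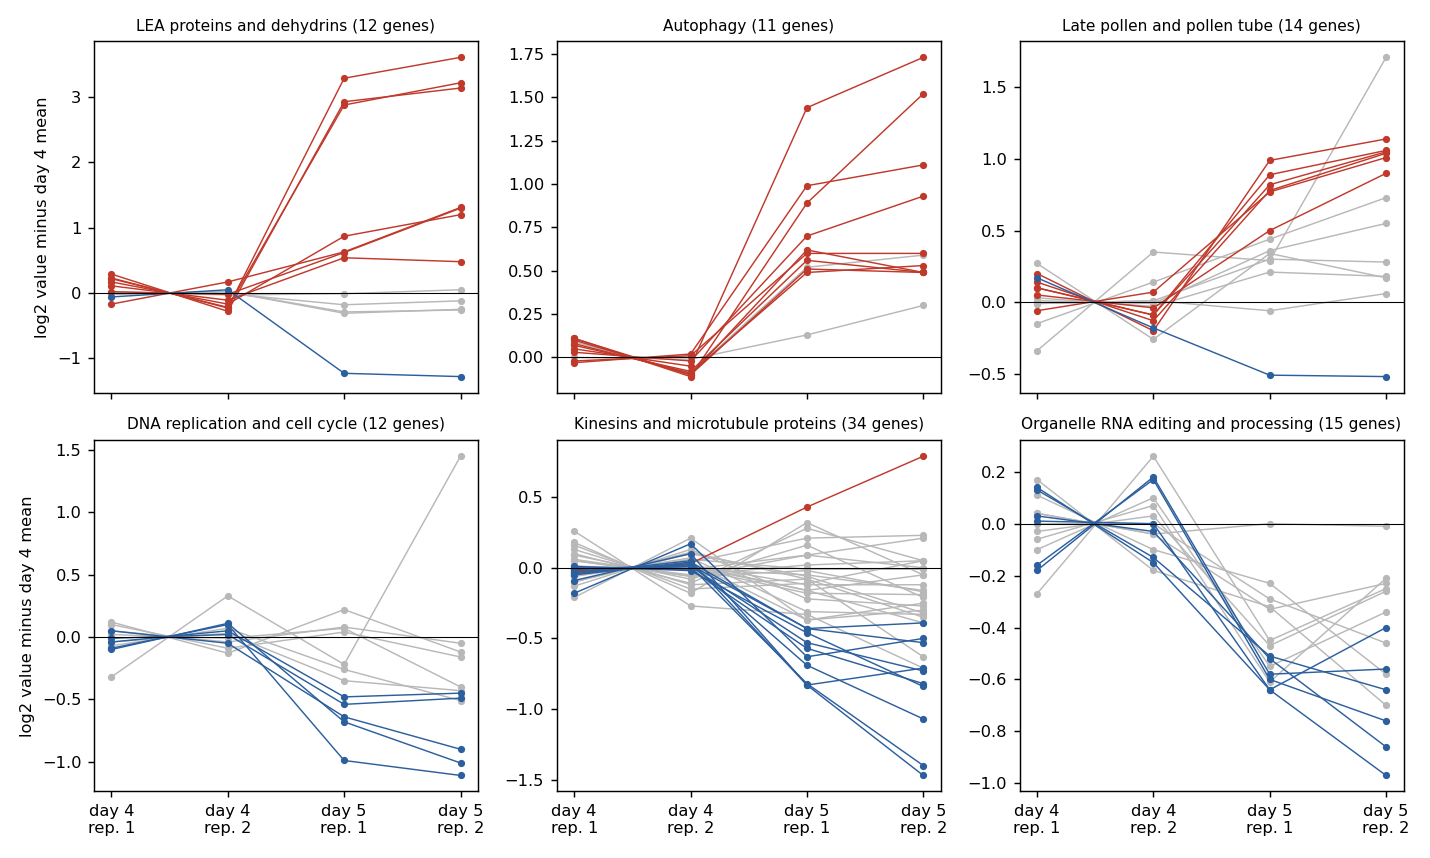
Each line is 1 gene, drawn as its log2 RMA value on the 2 day 4 and 2 day 5 arrays minus its own day 4 mean. Red genes passed as higher, blue genes as lower and grey genes did not pass, with vertical scales that differ between panels. All 11 autophagy genes are above 0 on both day 5 arrays, while most microtubule and organelle RNA genes are below.

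Some genes separated the replicates more than the days. In 185 probe sets the day 5 arrays differed 2-fold or more, and in 162 of them replicate 2 was the higher. In 156 of those 162, replicate 2 was also the higher array on day 4, and 6 of the 185 passed as higher and 10 as lower. The genes that follow were chosen after their values were seen. SWEET9, the sugar exporter of nectaries, read 6.23 and 7.84 on day 4 and 6.87 and 9.01 on day 5 (adjusted p = 0.427). AT59, a pectate lyase of pollen, read 6.29 and 7.29, then 6.98 and 8.77 (adjusted p = 0.199).

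The pollen tube kinase ANX2 read 5.99 and 6.68, then 6.62 and 8.04 (adjusted p = 0.134), and the peptide RALFL26 read 7.82 and 9.03, then 8.58 and 10.33 (adjusted p = 0.238). For each of these 4 genes the days overlapped, since day 4 replicate 2 lay above day 5 replicate 1. Their day 3 arrays, at 7.03 and 6.35 for SWEET9 and 6.32 and 6.44 for ANX2, were closer together. The stage of the buds on each array is not given in the labels, and its part in the day comparison was not tested.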

How the data were processed

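RNA from the buds was hybridised, as biotin-labelled target, to 1 array a sample. Each value is the log2 summary of a probe set, as deposited by the authors. RMA and the package affy appear in the submitters' processing notes, with no version. RMA corrects background, gives the arrays a common distribution and summarises probes. Arrays have no read depth, and precision is limited by their number, 2 a day.

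Of 22810 probe sets, 64 controls were left out. Platform annotation, updated through RefSeq genes of assembly TAIR10.1, gave 1 gene for 13513 probe sets, several for 503 and none for 8730, which stay unnamed here. Day means were fitted with limma 3.58.1 in R 4.3.3 (lmFit, eBayes, 3 group means, 6 arrays, 3 residual and 4.69 prior degrees of freedom). Tests were two-sided with Benjamini-Hochberg adjustment over 22746 probe sets. The fit was tested on simulated data.

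Genes were named by rule. It took the 20 largest rises and 20 largest falls with 1 gene and no overlap of arrays, the next 15 each way with a symbol, and up to 4 members per direction of each list with the smallest p, or the 2 with the smallest p where none passed. COR15A, HIRD11, ATG3, ATG101, AMS, SEU, CLV3, EXPA7 and EXPA18 fall outside it and were chosen after their values were seen. The comparison, lists and rule were chosen with earlier results of these data known. Wrongly matched list entries, 33 in all, were removed, 11 of them after values had been seen. Promoter motifs were not analysed here.

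Alternatives, with 1 choice changed at a time, were leaving out means under 5, keeping probe sets with 1 gene, cyclic loess, median or poly-A centring, a trended robust prior, array weights, fitting the 4 arrays alone, a replicate block, a fold minimum of 2, each array left out and, for lists, the probe set with the smallest p.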

Additional observations from a re-analysis of the deposited data

How the results depend on the processing

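The 5020 calls (2376 higher, 2644 lower) stayed within 1.5 times of that count under the low-value filter, the robust prior, cyclic loess, median centring, array weights, the 4 arrays alone and without either day 3 array. Probe sets with 1 gene alone gave 2548 (1226 higher, 1322 lower), by construction fewer. A 2-fold requirement as well left 1045 (660 higher, 385 lower). Spike-in centring gave 11929 (917 higher, 11012 lower). Leaving out 1 array gave 1366 to 5427 calls, 797 to 2519 higher and 569 to 2908 lower, with the lowest counts without day 4 replicate 2. Omitting day 4 replicate 1 gave 2099, and omitting day 5 replicate 2 gave 2146. The cause was not tested beyond the loss of samples.

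With the replicate number as a block, 5827 probe sets passed (2792 higher, 3035 lower), and no named gene lost its call. The block raised the count of lower plastid-encoded genes from 2 to 11, of lower organelle RNA genes from 6 to 11, and that of higher sugar transport genes from 2 to 6. Deviations of same-numbered arrays correlated at 0.376 for days 4 and 5, 0.145 for days 3 and 5 and 0.099 for days 3 and 4. The labels give the replicates a number and no other link, so the main fit has no block. Whether same-numbered samples of days 4 and 5 share an origin was not tested.

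Of 219 named genes 211 passed, and 91 of them also passed with each array left out in turn. Calls were lost by 85, 112, 34 and 85 named genes without day 4 replicate 1, day 4 replicate 2, day 5 replicate 1 and day 5 replicate 2. Under spike-in centring 37 calls were lost with their direction kept, and that of SDP1 was lost with its direction reversed. Under cyclic loess 11 were lost and under the robust prior 7. Direction reversed, short of the threshold, for SDP1 (log2 change -0.03) and NOL (-0.10) under spike-in centring, for GAPC2 (0.14) and TUB6 (0.10) under cyclic loess, and for TUB6 with day 4 replicate 2 (0.01) or day 5 replicate 1 (0.04) left out.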
